A study of Homo sapiens with 4 samples.

Results

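COPII is the protein coat that buds transport vesicles from the endoplasmic reticulum. SEC24 and SEC23 form its inner layer, in which SEC24 binds the cargo and SEC23 activates the GTPase SAR1, and SEC31 with SEC13 forms the outer cage. SEC16A and SEC23IP organize the exit sites where the vesicles form, and MIA3 loads bulky cargo such as procollagen there. The mRNAs of 10 genes of this machinery, SEC24A, SEC24B, SEC24C, SEC24D, SEC23A, SEC23B, SEC31A, SEC16A, SEC23IP and MIA3, were examined among 19701 protein-coding genes for recovery with IGF2BP3. IGF2BP3 is an oncofetal RNA-binding protein, known as a reader of m6A-modified mRNA and for effects on mRNA stability. SEC24B was selected on its fold enrichment, which is among the highest in these data, and the other members were chosen around it as its paralogs and coat partners. Their values are therefore a description, with no test.

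RNA immunoprecipitation followed by sequencing (RIP-seq) recovers with an antibody the RNA held by a protein. The samples were 2 anti-IGF2BP3 RIP samples and 2 input samples, made without antibody, of OE-19, an established line of adenocarcinoma of the esophagogastric junction grown in RPMI1640 with fetal bovine serum. Per the labels all cells were UV fixed, and no genetic change or drug is named for any group. The input samples were not analysed here, and the study calls its replicates biological without saying whether they came from separate cultures. Each RIP sample had its own list of peaks, stretches of the genome where the authors' caller found more RIP reads than its background. The list of replicate 1 held 44622 peaks and that of replicate 2 held 42723. Fold enrichment, written as fold below, is the caller's ratio of RIP signal to its background, taken at the summit, which is the highest point of a peak, and q is its p after correction for multiple testing. Read depth is unknown. A peak list holds no expression level, so how far peak number and fold moved with mRNA abundance was not tested, a gene with few peaks is only a gene with few called peaks, and markers of the cell line could not be looked up.

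The members held 152 exonic peaks in replicate 1 and 155 in replicate 2, a mean of 153.5 ± 2.12 (SD, n = 2). All 10 had a peak in both replicates, as did 28.0% of protein-coding genes, and 7 had a peak with a q of at most 0.05 in both, as did 4.98% of those genes. The members without one were SEC24C, SEC23B and MIA3. Since the members were chosen with these lists known, nothing is read from these shares. The median fold of member peaks was 3.09 in replicate 1 and 3.36 in replicate 2, beside 2.95 and 2.93 over all exonic peaks of protein-coding genes. In replicate 1, 41 member peaks (27.0%) had a q of at most 0.05, and in replicate 2, 35 (22.6%), so most member peaks rest on the uncorrected p alone.

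The members ranged from a summit in nearly every coding exon to almost no peaks. SEC31A, SEC24D and SEC24B had the most peaks per kb of canonical mRNA, at 5.47 ± 0.494, 5.35 ± 0.176 and 5.02 ± 0.139 (SD, n = 2 each). SEC24A followed at 3.83 ± 0.111, SEC23A at 2.99 ± 0.184, SEC23IP at 2.66 ± 0.198 and SEC16A at 2.22 in both replicates. At the low end were SEC24C at 1.01 ± 0.159, SEC23B at 0.661 in both replicates and MIA3 at 0.185 ± 0.0870 (SD, n = 2 each). The median over the 5523 genes with a peak in both replicates was 1.18 in replicate 1 and 1.12 in replicate 2, so that 7 members lay above it in both replicates and SEC23B and MIA3 below it in both. Few member exons held more than 1 peak, so peaks per kb also depend on how many exons an mRNA has per kb. The replicates of SEC31A and SEC24D overlapped, and all other neighbours in this order stood apart with 2 values each. All exonic peaks were counted, including those with summits off the canonical mRNA, of which SEC31A had 3 in replicate 1 and 1 in replicate 2. SEC24D had none, so the order of SEC31A and SEC24D depends on this choice. The single peak of MIA3 in replicate 1 was also off the canonical mRNA. Dividing by the merged length of all annotated exons in place of the canonical mRNA gave 2.17 for SEC24D, 2.53 for SEC31A and 1.33 for SEC23A, and SEC24B then came first at 4.89 peaks per kb.

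**Figure D1:**
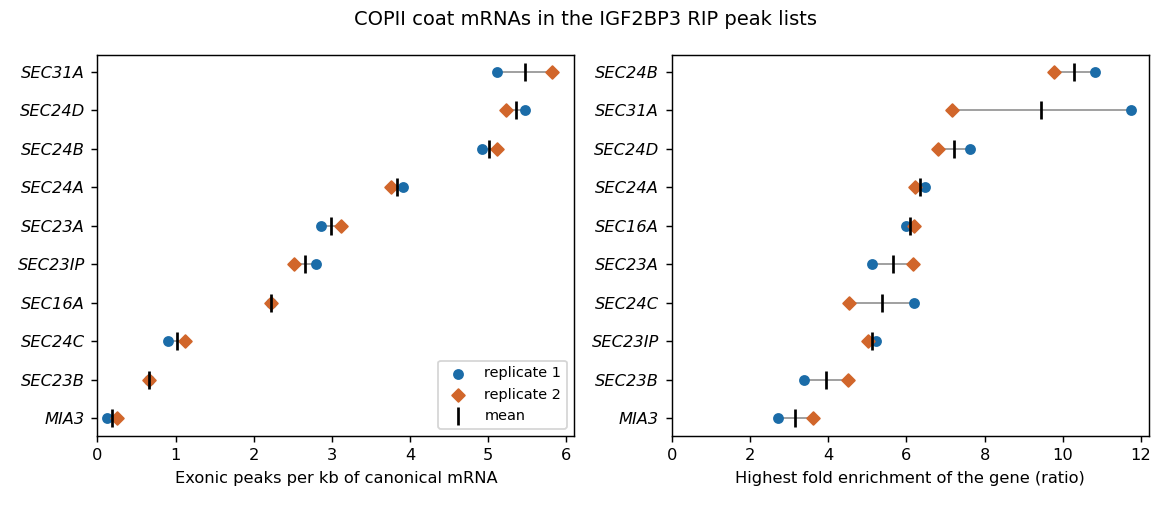
Exonic peaks per kb of canonical mRNA (left) and highest fold of the gene (right, ratio) for the 10 members, each ordered by its mean; circles are replicate 1, diamonds replicate 2 and ticks the mean. SEC24B, SEC24D and SEC31A lead both panels, and MIA3 is last in both, at 0.185 peaks per kb and a mean highest fold of 3.16.

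The highest fold of a gene gave a partly different order. SEC24B reached 10.8 in replicate 1 and 9.77 in replicate 2, which ranked 3 and 2 among the 5523 genes. SEC31A reached 11.7 in replicate 1, the highest value of that list, but 7.17 in replicate 2, where it ranked 80. SEC24D reached 7.64 and 6.80, and SEC24A 6.49 and 6.23. The replicates of SEC24B, SEC31A and SEC24D overlapped from one to the next, whereas SEC24A lay below SEC24D and above SEC16A in both. The other members followed with means of 6.10 ± 0.143 for SEC16A, 5.65 ± 0.740 for SEC23A, 5.37 ± 1.18 for SEC24C, 5.12 ± 0.137 for SEC23IP, 3.94 ± 0.788 for SEC23B and 3.16 ± 0.627 for MIA3 (SD, n = 2 each). Of these neighbours, only SEC23IP and SEC23B did not overlap. The median highest fold over the 5523 genes was 3.64 in replicate 1 and 3.51 in replicate 2.

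To show the RNA behind the strongest peaks, 6 stretches are printed from the hg38 genome in the sense of the mRNA, each being the part of a coding exon covered by the peaks of both replicates. The capitals mark the bases from the summit of one replicate to that of the other, with 5 nt added on either side. Exons 3 and 6 of SEC24B held its highest folds, SEC24A exon 5 and SEC24D exon 5 are the exons aligned to SEC24B exon 6, SEC31A exon 24 held the highest fold of replicate 1, and SEC23A exon 14 held the strongest peak of the SEC23 pair.
SEC24B exon 3, chr4:109473004-109473186, plus strand: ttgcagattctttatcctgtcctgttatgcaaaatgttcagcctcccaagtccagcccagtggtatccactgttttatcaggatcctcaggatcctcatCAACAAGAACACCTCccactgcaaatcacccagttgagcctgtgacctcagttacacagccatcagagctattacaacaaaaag
SEC24B exon 6, chr4:109494615-109494855, plus strand: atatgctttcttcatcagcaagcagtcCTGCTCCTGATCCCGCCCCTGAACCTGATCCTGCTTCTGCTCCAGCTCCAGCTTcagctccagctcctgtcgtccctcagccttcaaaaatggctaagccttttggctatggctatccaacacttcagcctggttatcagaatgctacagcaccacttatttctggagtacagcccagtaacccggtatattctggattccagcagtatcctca
SEC24A exon 5, chr5:134674615-134674728, plus strand: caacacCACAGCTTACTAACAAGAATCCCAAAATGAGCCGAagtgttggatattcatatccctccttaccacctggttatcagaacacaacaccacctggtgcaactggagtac
SEC24D exon 5, chr4:118815469-118815710, minus strand: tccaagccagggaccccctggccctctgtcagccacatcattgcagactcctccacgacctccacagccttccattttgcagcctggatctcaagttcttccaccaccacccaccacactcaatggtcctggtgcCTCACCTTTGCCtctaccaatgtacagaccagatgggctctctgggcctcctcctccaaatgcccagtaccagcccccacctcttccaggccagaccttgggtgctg
SEC31A exon 24, chr4:82827369-82827632, minus strand: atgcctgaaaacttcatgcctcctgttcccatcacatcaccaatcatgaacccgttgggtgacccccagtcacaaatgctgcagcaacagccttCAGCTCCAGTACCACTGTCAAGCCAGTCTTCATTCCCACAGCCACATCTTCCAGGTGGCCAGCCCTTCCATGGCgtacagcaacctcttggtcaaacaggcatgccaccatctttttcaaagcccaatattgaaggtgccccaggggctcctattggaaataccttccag
SEC23A exon 14, chr14:39055164-39055291, minus strand: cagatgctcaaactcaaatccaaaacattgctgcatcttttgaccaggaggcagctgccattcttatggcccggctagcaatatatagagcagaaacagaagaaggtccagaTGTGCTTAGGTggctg

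In base composition they range from 45.6% G and C in the SEC24A stretch to 59.1% in the SEC24D stretch. The GGAC core that the study names for IGF2BP3 and m6A was searched on the mRNA strand. It occurs in 1 of the 6 printed stretches, in SEC24D exon 5, and TGGAC occurs in none of them. TGGAC contains GGAC, so the counts overlap. In windows of 101 nt centred on the member summits, TGGAC was present in 24 of 146 (16.4%) in replicate 1 and 25 of 152 (16.4%) in replicate 2, beside 12.9% and 13.0% of all summit windows on canonical mRNAs. GGAC was present in 32.9% and 31.6%, beside 32.0% and 32.0%. ACACA, a CA-rich sequence, was present in 8.22% and 10.5%, beside 11.3% and 10.9%. Neighbouring windows of a gene may overlap, and these shares carry no test. The median window was 46.5% G and C in replicate 1 and 45.5% in replicate 2, beside 47.5% in both over all summits.

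The SEC24 family divides in sequence into SEC24A with SEC24B, which shared 62.9% of aligned residues in the translated canonical transcripts, and SEC24C with SEC24D, which shared 59.5%. Across these pairs the shared part was 30.5% to 32.2%. The peaks did not follow this division, since SEC24D carried nearly as many as SEC24A and SEC24B whereas its closest paralog SEC24C carried few. Replicates 1 and 2 gave 25 and 26 exonic peaks for SEC24B, 25 and 24 for SEC24A, 22 and 21 for SEC24D, and 4 and 5 for SEC24C. The gap between SEC24D and SEC24C was larger than the spread between replicates, with means of 21.5 ± 0.707 and 4.5 ± 0.707 peaks (SD, n = 2 each). Their coding sequences are of like length, 3099 nt in SEC24D and 3285 nt in SEC24C, and differ in G and C content, at 47.5% and 54.4%. Across the 5523 genes, the G and C content of the coding sequence and peaks per kb had a Spearman's rho of -0.0244 in replicate 1 and -0.0554 in replicate 2, a description across genes. All genes were also split by such content into 5 bins of nearly equal size. The share with a peak in both replicates was 39.0% in bin 1, with the lowest content, and 15.7% in bin 5, with the highest. SEC24D lay in bin 2 and SEC24C in bin 3, where the shares were closer, at 35.2% and 27.5%. The median peaks per kb of genes with a peak in both replicates was 1.24 in bin 2 and 1.21 in bin 3. Whether G and C content bears on the gap between SEC24D and SEC24C was not tested.

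SEC24B (chr4:109433772-109540896, plus strand) encodes the adaptor known for sorting the planar polarity protein VANGL2. Nearly all of its 24 exons held a summit. Both replicates had a summit in 23 exons, and exon 13, of 56 nt, had a summit in replicate 2 alone. A share this high was found in 5 of the 1496 genes with at least 19 exons and a peak in both replicates, SEC24B included, and their median was 19.4%. Exon 3 (183 nt, codons 293 to 354) had a fold of 10.6 in replicate 1 (q = 8.23e-11) and 9.77 in replicate 2 (q = 1.35e-09), with the summits 4 nt apart at mRNA positions 1037 and 1041. Exon 8 had 7.76 and 7.17, and exon 6 had 10.8 and 5.27. These were the exons of SEC24B with a fold of at least 5 in both replicates.

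Position and height of the SEC24B peaks were each compared between the replicates. In the 22 exons with 1 peak in each replicate, the summits lay a median of 12 nt apart, and at most 129 nt. Both summits lie in the same exon, whose length bounds this distance, so it cannot be ranked against the agreement of folds. The fold per exon gave a Pearson's r of 0.170 on the log2 scale and a Spearman's rho of 0.0573 across 23 exons. In replicate 1 the high folds lay towards the 5′ side, with 8.28 in exon 7 and 6.27 in exon 5, where replicate 2 had 2.81 and 2.37. In replicate 2 exon 22 had 8.17, exon 18 had 6.80 and exon 20 had 6.53, where replicate 1 had 2.55, 2.48 and 2.93. The highest exon also differed, being exon 6 in replicate 1 and exon 3 in replicate 2.

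Beyond the canonical mRNA, SEC24B had a peak on a 93-nt exon (chr4:109449417-109449509) between canonical exons 1 and 2, which 1 of its 3 annotated transcripts, SEC24B-203, includes. Its fold was 6.89 (q = 1.18e-06) in replicate 1 and 3.54 (q = 0.108) in replicate 2. Exon 2, the longest internal exon of SEC24B at 744 nt, was covered end to end by a single peak of 757 bp in replicate 1 and 752 bp in replicate 2, with low folds of 2.80 and 4.22.

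**Figure D2:**
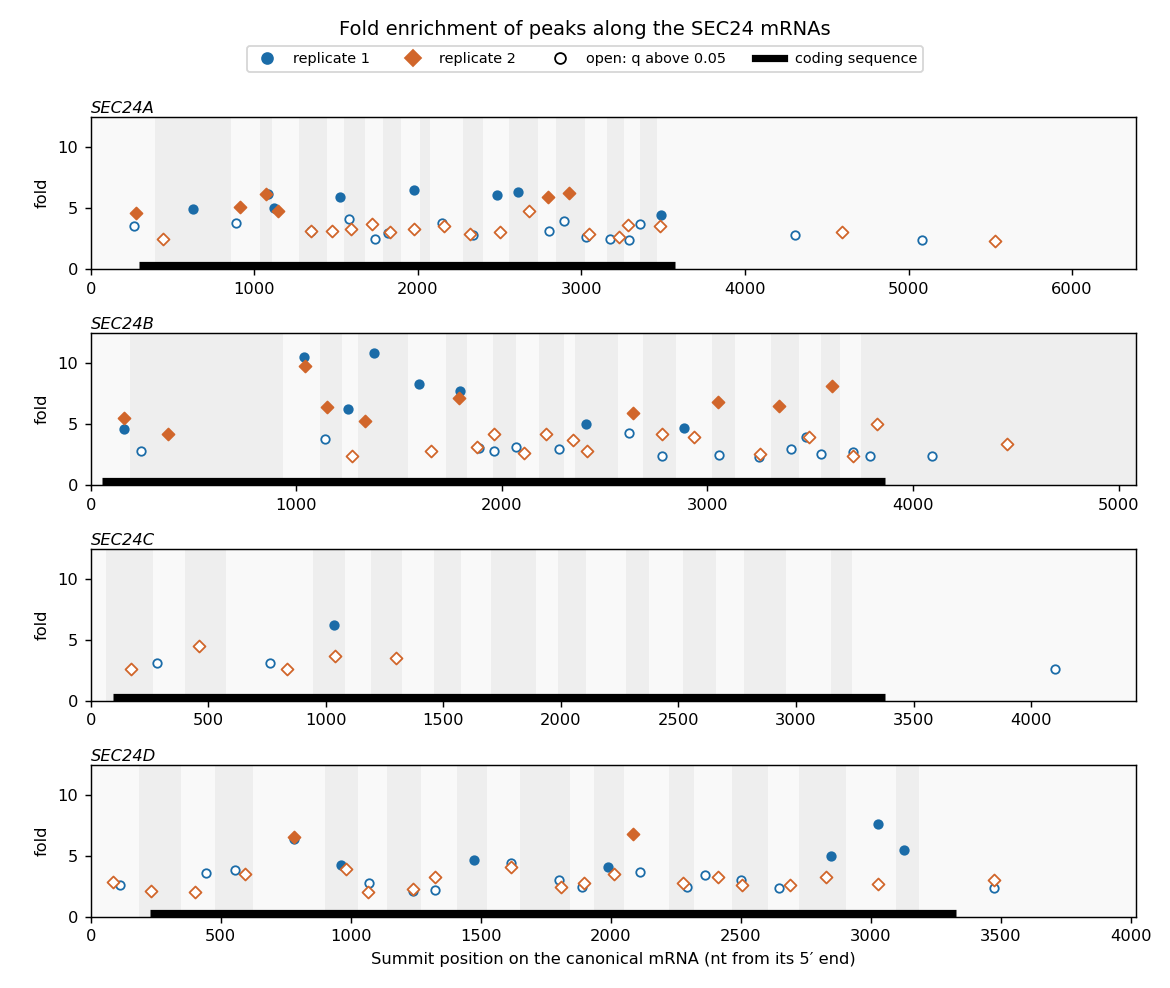
Fold (ratio, vertical axis) of each peak against its summit position on the canonical mRNA (nt) for the SEC24 genes; circles are replicate 1, diamonds replicate 2, filled symbols have a q of at most 0.05, shaded bands are alternate exons and the black bar is the coding sequence. SEC24A, SEC24B and SEC24D show peaks along the whole coding sequence and few beyond it, whereas SEC24C shows 4 peaks in replicate 1 and 5 in replicate 2.

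SEC24A (chr5:134648785-134727909, plus strand), the closest paralog of SEC24B, had a summit in both replicates in 21 of 23 exons. Its folds were flatter than those of SEC24B. The one exon with a fold of at least 5 in both replicates was exon 4, of 78 nt, with 6.17 in each (q = 8.33e-06 and 6.32e-05). Other high values were seen in a single replicate, such as 6.49 in exon 11 where replicate 2 had 3.28, and 6.23 in exon 18 where replicate 1 had 3.96. The exon without a summit in either replicate was exon 12, of 56 nt, which aligns to the 56-nt exon 13 of SEC24B, where replicate 1 had none either. A peak with folds of 3.33 and 3.36 covered this exon in both replicates, with its summits just past the 3′ edge, in the extended form of the exon that SEC24A-203 carries. The peak in exon 1, with folds of 3.51 and 4.61, also lies in an exon of SAR1B, the neighbouring gene for the COPII GTPase, and without strand in the lists these cannot be told apart.

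SEC24D (chr4:118722823-118838683, minus strand) is known from a human disorder of brittle bone and skull formation. It had a summit in both replicates in 20 of 23 exons and in at least 1 replicate in every exon. Its highest fold in replicate 1 was 7.64 in exon 21, where replicate 2 had 2.70, and its highest in replicate 2 was 6.80 in exon 15, where replicate 1 had 3.70. Exon 5 repeated, with 6.38 (q = 3.73e-05) and 6.56 (q = 0.000295) and summits 1 base apart. Across 20 exons the folds of the replicates had a Pearson's r of 0.464 and a Spearman's rho of 0.504.

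SEC24C (chr10:73744372-73772161, plus strand), a close relative of SEC24D, had a summit in both replicates in exons 5 and 6 alone, and in 16 of its 23 exons in neither. Its coding summits were confined in these lists to exons 2 to 8. Exon 6 had a fold of 6.20 (q = 0.000633) in replicate 1 and 3.72 (q = 0.912) in replicate 2, with the summits 4 nt apart. No SEC24C peak of replicate 2 reached a q of 0.05. The largest of them was 4.53 in exon 4, where replicate 1 had no peak.

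Aligning the proteins placed exons of the paralogs against each other. Of 22 exon pairs of SEC24B and SEC24A, a summit in both replicates was present in 21 of SEC24B and 20 of SEC24A. Of the 20 pairs where both genes had one, SEC24B had the higher fold in both replicates in 8, SEC24A in 3, and the others differed in direction between replicates. Their median folds were 4.13 and 3.86, and the mean folds had a Spearman's rho of -0.0436 across the pairs. Of 20 pairs of SEC24B and SEC24D, 20 and 17 had a summit in both replicates, with SEC24B higher in both replicates in 4 and SEC24D in 2. Of 19 pairs of SEC24B and SEC24C, all 19 of SEC24B but 1 of SEC24C had one. The exons aligned to the strongest SEC24B exon, exon 3, held folds of 3.82 and 5.10 in SEC24A and of 3.60 and 2.06 in SEC24D, and SEC24C had 4.53 in replicate 2 with no peak in replicate 1. Exon 6 of SEC24B and its aligned exons held a summit in both replicates in all 4 paralogs, with 5.03 and 4.78 in SEC24A, 6.38 and 6.56 in SEC24D, and 3.09 and 2.62 in SEC24C. These pairings are loose. Residue identity with exon 6 was 45.3% in SEC24A, 36.7% in SEC24D and 25.5% in SEC24C. With exon 3 it was 28.95% in SEC24A, 25% in SEC24D and 36.8% in SEC24C.

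**Figure D3:**
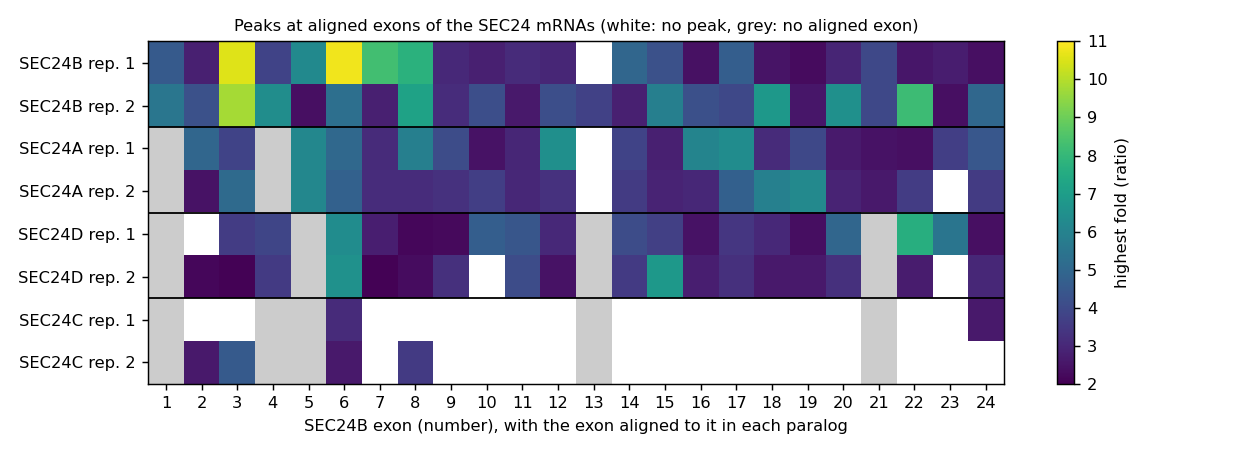
Highest fold (colour, ratio) at each SEC24B exon (horizontal axis, exon number) and at the exon aligned to it in SEC24A, SEC24D and SEC24C, with 1 line per replicate; white marks no peak and grey no aligned exon. SEC24B exon 3 is bright in both replicates, and the SEC24C lines are mostly white, with 1 of 19 aligned exons filled in both replicates.

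The SEC23 pair showed the same kind of contrast between proteins that are far more alike. SEC23A and SEC23B shared 84.8% of aligned residues, and most of their aligned coding exons have the same length. SEC23A (chr14:39031919-39109646, minus strand), whose loss is known from a craniofacial disorder, had 11 and 12 exonic peaks. SEC23B (chr20:18507520-18561415, plus strand), mutated in a congenital dyserythropoietic anaemia, had 2 in each replicate. The means of 11.5 ± 0.707 and 2 ± 0 (SD, n = 2 each) were further apart than the replicates. Of 19 aligned exon pairs, 8 of SEC23A and 0 of SEC23B had a summit in both replicates. The SEC23B summits lay in exons 7 and 18 in replicate 1 and in exons 13 and 16 in replicate 2, with folds of 2.35 to 4.50, none overlapping and none with a q of at most 0.05.

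The peaks of SEC23A lay mostly on the 3′ side of its coding sequence. Besides exons 2 and 10, exons 13, 14, 16, 17, 18 and 19 had a summit in both replicates, and exon 14 had the highest fold, 5.13 (q = 0.0118) in replicate 1 and 6.17 (q = 6.32e-05) in replicate 2, with both summits on the same base at mRNA position 1853. The aligned exon 14 of SEC23B, also 154 nt long and 76.5% identical in residues, had no peak. Exon 15 had 5.59 in replicate 2 and no peak in replicate 1. No summit of SEC23A or SEC23B lay in a 3′ UTR in either replicate.

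SEC31A (chr4:82818509-82901166, minus strand), the outer cage subunit, had 22 and 25 exonic peaks, with a summit in both replicates in 17 of 27 exons. Its folds were highest towards the 3′ end of the coding sequence. Up to exon 18 the folds of replicate 1 were 2.05 to 5.40 and those of replicate 2 were 2.16 to 6.36, and exons 19 to 22 had 5.83 to 6.41 in replicate 1. The highest values of replicate 1 stood in 4 neighbouring exons, with 8.42 in exon 23, 11.7 in exon 24 (q = 3.08e-12), 10.4 in exon 25 and 10.1 in exon 26. In replicate 2 exon 23 had 7.17 (q = 1.90e-06) and exon 24 had 5.67 (q = 0.00148), but exons 25 and 26 had 3.60 and 2.54, so that the height of the 3′ end of this block was seen in 1 replicate. Exons 21 to 24 had a fold of at least 5 in both. The replicates gave a Pearson's r of 0.583 and a Spearman's rho of 0.625 across the 17 exons. On a 39-nt exon of SEC31A-213 (chr4:82830937-82830975), between canonical exons 22 and 23, replicate 1 had a fold of 5.16 (q = 7.05e-05), and the peak of replicate 2 there, with a fold of 2.68, had its summit just outside this exon. Peaks at upstream first exons, with folds of 2.77 and 2.45, also lie in an exon of the gene THAP9-AS1.

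SEC16A (chr9:136440096-136483759, minus strand), the scaffold of the exit sites, had 20 peaks in each replicate. They left the 5′ part of the mRNA empty. The first summit lay 3567 nt from the start of the 9018-nt mRNA, near the end of exon 3, which spans 3636 nt and held 1 peak of each replicate, with folds of 2.45 and 2.06. From there on 15 of its 32 exons had a summit in both replicates. The strongest repeated peak was in exon 28, with 5.997 (q = 0.000885) and 5.63 (q = 0.00282), and exon 29 had 6.20 in replicate 2 alone. Replicate 1 had 3 summits in the 3′ UTR and replicate 2 had none.

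SEC23IP (chr10:119892707-119944657, plus strand), a phospholipase-related protein that binds SEC23, had peaks along its coding sequence. It had 20 and 18 peaks and a summit in both replicates in 16 of 19 exons, with a highest fold of 5.22 and 5.02. The last exon, 4072 nt of 3′ UTR, held 3 and 2 of these peaks. Exon 3 had 5.22 and 4.93, and exon 14 had 4.45 and 5.02, each with a q of at most 0.05 in both replicates. Exon 2, of 533 nt, was spanned nearly whole by peaks of 475 and 474 bp.

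MIA3 (chr1:222618097-222668007, plus strand) was the member with the fewest peaks with a summit in an exon, 1 and 2. No canonical exon had a summit in both replicates, and 26 of 28 had none in either, including exon 4 of 2815 nt and exon 28 of 2699 nt. Replicate 2 had summits in exons 26 and 27 with folds of 3.40 and 3.60, and these peaks ran up to 617 nt past an exon edge into the introns beside them. The single exonic summit of replicate 1, with a fold of 2.72, lay in an exon of a non-coding MIA3 transcript in the same stretch. Replicate 1 had 3 further peaks with intronic summits there, with folds of 2.22 to 3.20, and one of these covered exon 25. All had a q of 1.

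**Figure D4:**
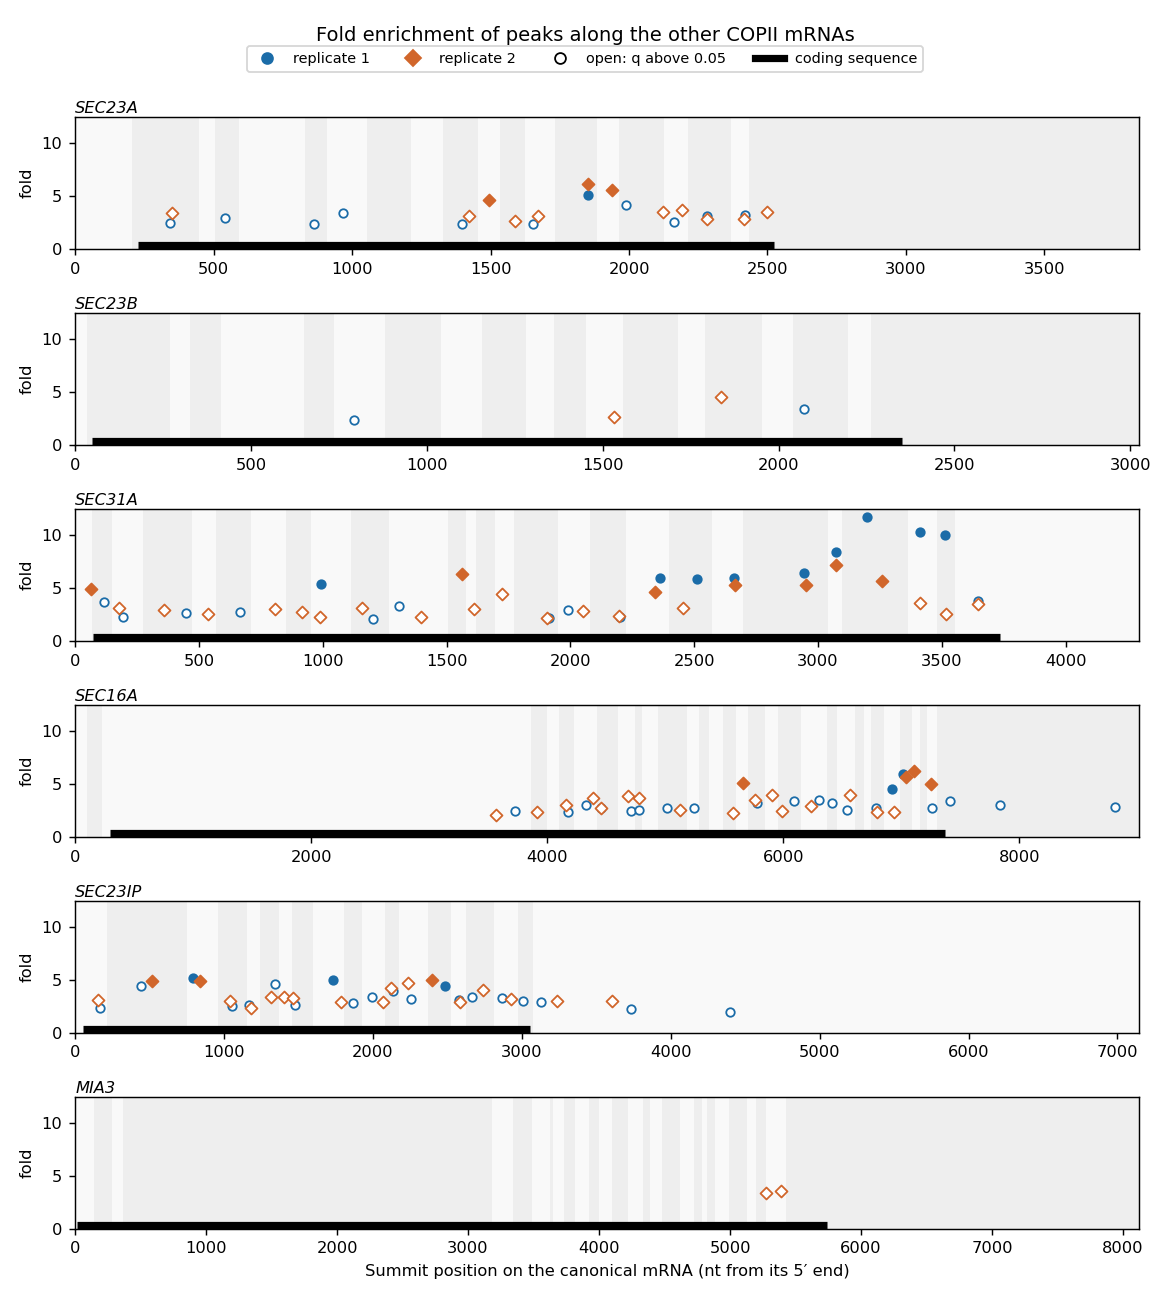
Fold (ratio, vertical axis) of each peak against its summit position on the canonical mRNA (nt) for SEC23A, SEC23B, SEC31A, SEC16A, SEC23IP and MIA3, with symbols, bands and bar as in the plot of the SEC24 genes. SEC31A peaks are highest near the 3′ end of its coding sequence, up to 11.7, and SEC16A has no summit before position 3567.

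Over all members, peaks were set against exons in genome coordinates, where introns separate the exons of an mRNA. Of the 239 canonical exons, 122 (51.0%) had a summit in both replicates, beside 27.0% of the canonical exons of all genes with a peak in both, and only 4 held more than 1 peak in a replicate. Of the member peaks in internal exons, 64.8% in replicate 1 and 66.4% in replicate 2 reached past at least 1 exon edge, beside 45.6% and 43.2% over all protein-coding genes. The median peak covered 85.5% and 84.3% of its exon, beside 68.2% and 68.5%. Short exons were called less: of exons of 51 to 100 nt 24.2% had a summit in both replicates, of 101 to 150 nt 52.8%, of 151 to 200 nt 72.0% and of 201 to 500 nt 80.0%, beside 13.5%, 24.6%, 33.1% and 37.8% over all genes with a peak in both. Over 500 nt the shares were 57.1% of 14 member exons and 55.2%.

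The replicates overlapped in 130 of 152 member peaks (85.5%) in replicate 1 and 130 of 155 (83.9%) in replicate 2, beside 62.9% of all exonic peaks. In the 119 exons with 1 peak in each replicate, the summits were a median of 17 nt apart and at most 179 nt. Both lie in the same exon, whose length bounds that distance, and the median length of exons with a summit in both replicates was 147.5 nt. Heights gave a Pearson's r of log2 fold of 0.369 and a Spearman's rho of 0.339 across 122 exons. These points share libraries and genes, so no p is given. Folds took few distinct values, 95 among the 152 peaks of replicate 1 and 97 among the 155 of replicate 2. Exon 8 of SEC24B and exon 23 of SEC31A, for example, had the same fold of 7.17 and q of 1.90e-06 in replicate 2.

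**Figure D5:**
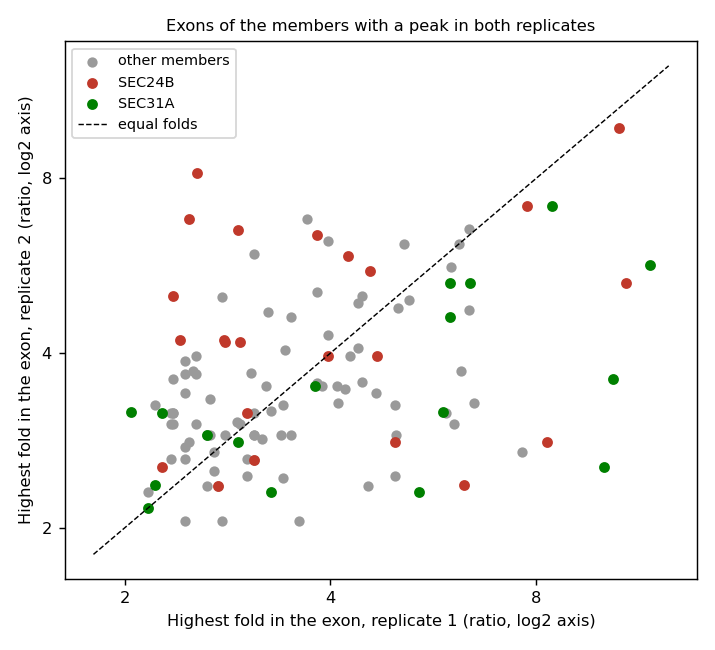
Highest fold in replicate 1 (horizontal) and replicate 2 (vertical), both on log2 axes, for the 122 member exons with a summit in both; red points are SEC24B, green SEC31A and grey the other members, and the dashed line marks equal folds. SEC24B points spread on both sides of the line, and SEC31A has exons far to its right, such as 10.1 in replicate 1 against 2.54 in replicate 2.

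The requirement of a q of at most 0.05 in both replicates left 16 of the 239 canonical exons of the members. The share of all canonical exons at this limit was not computed, so nothing is read from the count. The 16 were 5 exons of SEC31A, 4 of SEC24B, 2 each of SEC24A and SEC23IP, and 1 each of SEC24D, SEC23A and SEC16A. The SEC31A exons were 19, 21, 22, 23 and 24. Those of SEC24B were 1, 3, 6 and 8, and those of SEC24A were 4 and 5. All 16 are coding at least in part, and none belongs to SEC24C, SEC23B or MIA3.

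Member summits on canonical mRNAs lay in the coding sequence in 133 cases (91.1%) in replicate 1 and 143 (94.1%) in replicate 2, beside 77.1% and 78.6% over all genes. The 3′ UTRs held 11 (7.53%) and 6 (3.95%), beside 19.1% and 17.8%, and the 5′ UTRs 2 and 3. Per length, the 37.5 kb of coding sequence held 3.54 and 3.81 summits per kb and the 16.5 kb of 3′ UTR held 0.667 and 0.364, beside 2.31 and 2.28 for coding sequence and 0.504 and 0.459 for 3′ UTRs of all genes with a peak in both replicates.

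Other genes of membrane traffic, those of the early secretory pathway and of the clathrin coat, which acts at later steps, were counted from lists. Peaks in exons were called in both replicates for 31 of 64 genes (48.4%), beside 28.0% of protein-coding genes, and 4 (6.25%) had one with a q of at most 0.05 in both, beside 4.98%. For the other COPII and exit site factors the first count was 4 of 11, with 0 at the q limit, for cargo receptors and SNAREs 11 of 21, for the COPI coat 5 of 11, for the clathrin coat 5 of 10 and for the translocon 6 of 11, with 1 at the q limit in each of these. The highest mean fold was seen for GBF1, the exchange factor that recruits COPI, with 24 and 22 peaks and highest folds of 6.29 and 5.59. AP1G1, a clathrin adaptor subunit, had 4.96 and 5.30, and SEC63 of the translocon had 4.70 and 5.12. SAR1B, the COPII GTPase, had 3.96 and 5.20, the vesicle tether USO1 had 3.60 and 5.15, and ERGIC1 had 4.25 and 4.46. GBF1, AP1G1 and SEC63 met the q limit in both replicates. SAR1B, USO1 and ERGIC1 missed it in replicate 1, where their lowest q was 0.336, 0.483 and 0.109.

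The genes closest to SEC24B by the distance over 4 values (log2 of highest fold and log2 of peaks per kb in each replicate) were R3HDM2, EIF4G3 and SAP130. This distance does not use where along the mRNA the peaks lie. R3HDM2 had 22 and 24 peaks with highest folds of 10.1 and 10.2, at a distance of 0.15. EIF4G3, a translation initiation scaffold, had 34 and 30 peaks with 10.9 and 8.86, at 0.22. SAP130, a subunit of the SIN3 corepressor, had 21 and 22 peaks with 9.48 and 7.94, at 0.37.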

How the data were processed

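The authors recovered RNA from OE-19 lysates with anti-IGF2BP3 and sequenced it with inputs. The labels name UV fixation of the cells, whereas the RIP methods name none. Per the methods reads were mapped with Tophat2, whereas the submitters' processing notes name fastp and HISAT2; both name hg38 and MACS2. Which library served as control is not given in the sources used here. The deposited lists, called per sample, hold position, summit, fold enrichment (a ratio to local background), −log10 p, −log10 q and a score derived from p. The smallest deposited −log10 p were 2.0003 and 2.00226, as a limit of 0.01 on p before correction would leave. Depth is unknown, so no counting interval is given.

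Peaks were assigned by summit to every gene whose GENCODE release 44 exons hold it, without strand, and mRNA positions were taken on the canonical coding transcript. Peaks overlapping by at least 1 bp were shared. Paralogs were aligned globally on proteins translated from the canonical coding sequences (gap opening 11, extension 1), and exons were paired by aligned residues. Values are given per replicate with mean and SD. No test was run, since there are 2 values and no second group. Alternatives were limits on q (0.05) and fold (5), other overlap and exon rules, and each replicate left out. Named genes were all members, the 6 listed pathway genes with the highest mean fold and a peak in both replicates, and the 3 genes closest to SEC24B. Members and lists were chosen with earlier results of these data known. Assignment was tested on 2000 simulated summits, of which 2000 were returned to their positions. Python 3.11.15, pandas 2.3.3, numpy 2.4.6, Biopython 1.88, bedtools 2.31.1, samtools 1.23.1 and matplotlib 3.10.9 were used.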

Additional observations from a re-analysis of the deposited data

Results flagged for a closer look

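Replicate 1 held 4 peaks with summits in introns of the members that lay in no exon of another gene. They are given here because their summits lie outside the exons compared above, with no test and no expected number. MIA3 held 3 of them, with folds of 2.22, 2.56 and 3.20, in the stretch between its exons 25 and 27, and SEC31A held 1 with a fold of 3.24. Replicate 2 held 1 such peak, in SEC31A, with a fold of 2.68. All had a q of 1. Only the summits are intronic in the MIA3 peak with a fold of 3.20 and in both SEC31A peaks, which overlapped an exon of their gene.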

How the results depend on the processing

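No paired analysis was possible because no result came from a test. With a q of at most 0.05 the members held a mean of 38 exonic peaks, of which 42.4% were shared and 97.1% lay in the coding sequence. With a fold of at least 5 these values were 28.5, 38.6% and 100%. At either limit a peak counted as shared only if its partner in the other replicate met the limit too. The 42.4% and 38.6% therefore cannot be set against the 84.7% without a limit, and do not show that stronger peaks repeat less often. Sharing was 67.8% with an overlap of at least 50% of both peaks and 78.8% with summits within 100 nt, beside 84.7%. The coding share was 86.9% when summits within 200 nt of the stop codon were left out of it. Leaving out each replicate gave 152 to 155 peaks, 83.9% to 85.5% shared, 91.1% to 94.1% coding and a highest SEC24B fold of 9.77 to 10.8. Members with a peak in both replicates numbered 7 at the q limit and 7 at the fold limit. They numbered 10 with any overlap of peak and exon and 9 with canonical exons, which left out MIA3. This count of members is not defined with 1 replicate. The share of all protein-coding genes was not computed at the fold limit, with any overlap or with canonical exons. Nothing is read from the member counts, since SEC24B was selected on its fold and the other members were chosen around it. Limits are the unknown depth, the missing expression level, 2 replicates and lists without strand.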
